A study of Mus musculus with 26 samples.

Results

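The transcripts described here come from 40 genes that act in mitosis, the stage in which a cell separates its copied chromosomes and then divides. The genes were given as a list of mouse symbols, and all 40 were found among the 54146 Ensembl gene identifiers of the count files. The list holds the cyclin and CDK1 engine, the Aurora and Polo-like kinases, the chromosomal passenger complex, the spindle assembly checkpoint, kinetochore proteins, the anaphase machinery, spindle motors and cytokinesis proteins, and the proliferation markers Mki67 and Top2a.

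The cells were mouse leukemia cultures, and both groups carried MLL-AF9 (MA9), a fusion oncogene of acute myeloid leukemia that was delivered by retrovirus into lineage-negative bone marrow cells. The MA9+SETDB1 cells also received SETDB1, an enzyme that methylates lysine 9 of histone H3, and the MA9+EV cells received the empty MSCV puromycin vector (EV). Both were cultured for 8 to 12 weeks with IL-3 and SCF and selected with puromycin for roughly 3 to 6 weeks. Strand-specific libraries of polyadenylated RNA were made from 3 MA9+SETDB1 and 3 MA9+EV samples, described in the series text as biological replicates. Whether the libraries stem from different mice or transductions, or from single clones, is not labelled, so the p-values cover the spread among these libraries alone. The comparison asks which transcripts differ when SETDB1 is overexpressed in these cells.

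In a dividing cell, cyclin B bound to CDK1 drives entry into mitosis, and kinases of the Aurora and Polo families build the spindle. The spindle assembly checkpoint holds the anaphase-promoting complex (APC/C) in check until all kinetochores are attached. The APC/C, with CDC20, then marks securin and cyclin B for destruction, so that separase can cut cohesin and sister chromatids part. Most genes of this program are transcribed late in the cell cycle through promoter elements known as the cell cycle homology region and the CCAAT box, which are read by the MuvB complex with B-MYB and FOXM1, and by NF-Y. Mitotic transcripts are therefore widely used as a measure of how many cells in a culture are cycling.

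The promoters of the list carried these elements. RefSeq windows on GRCm38.p6, each 300 bases long with 250 before and 50 after the transcription start, were available for 33 of the 40 genes. The cell cycle homology region, searched as TTTGAA or TTCGAA on both strands, was present for 25 of these 33 genes (75.8%), against 16.8% of the 9734 tested genes with a window. CCAAT, also on both strands, was present for 24 of the 33 (72.7%), against 43.5% of tested genes. Both stood in a single window for 22 of the 33 (66.7%), against 7.17%. An E2F site, searched as TTTGGCGC or TTTCGCGC, was found in Cdk1 alone among the 33, against 1.87% of tested genes. These motifs share no bases with each other in the windows printed here, and a match is a description of letters, not evidence of binding.

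**Figure D1:**
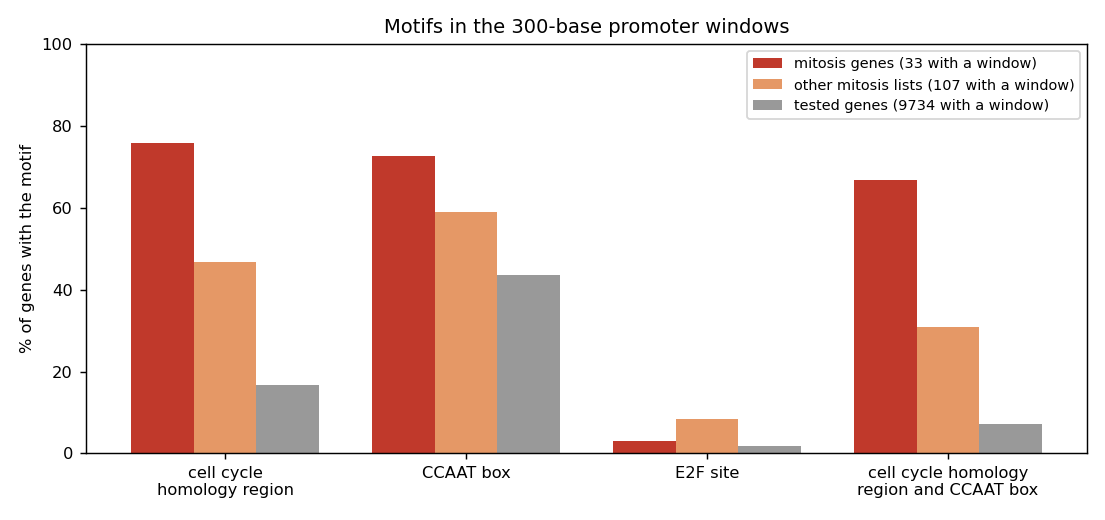
Share of genes (y axis, percent) with each motif in a 300-base promoter window, for 33 mitosis genes, 107 genes of other mitosis lists and 9734 tested genes. The cell cycle homology region stood at 75.8% in the mitosis genes, 46.7% in the other mitosis lists and 16.8% in tested genes.

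Among the 8 genes with a window that were lower in MA9+SETDB1 by the test given below, 5 held the cell cycle homology region and 3 held CCAAT. Among the 3 that were higher, 1 held each, and among the 22 that did not pass, 19 held the cell cycle homology region and 20 held CCAAT. The windows shown are those of the 3 genes with the largest absolute changes in this list (Cdc25b, Pttg1 and Anln), of Top2a as an abundant gene that did not pass, and of Cdk1, added after the motifs were seen because it carries all 3 kinds. Capitals mark the motifs, and sequences run 5′ to 3′ on the gene's strand, so that ATTGG and TTCAAA are CCAAT and TTTGAA on the opposite strand. For Cdc25b and Pttg1 the start used for the window lies inside the annotated span of the gene.
Cdc25b chr2:131186698-131186997 (plus strand): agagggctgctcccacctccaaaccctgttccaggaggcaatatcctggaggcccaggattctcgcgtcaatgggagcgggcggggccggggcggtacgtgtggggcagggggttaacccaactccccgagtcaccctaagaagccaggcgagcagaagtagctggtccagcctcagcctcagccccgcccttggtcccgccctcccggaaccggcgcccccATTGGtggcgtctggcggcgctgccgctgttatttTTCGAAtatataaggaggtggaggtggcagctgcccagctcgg
Pttg1 chr11:43425932-43426231 (minus strand): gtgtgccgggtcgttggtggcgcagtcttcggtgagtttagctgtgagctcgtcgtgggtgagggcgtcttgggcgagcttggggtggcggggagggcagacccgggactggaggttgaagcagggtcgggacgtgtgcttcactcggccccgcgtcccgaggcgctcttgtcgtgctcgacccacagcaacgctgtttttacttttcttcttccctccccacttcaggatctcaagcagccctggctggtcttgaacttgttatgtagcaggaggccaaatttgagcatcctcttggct
Anln chr9:22389157-22389456 (minus strand): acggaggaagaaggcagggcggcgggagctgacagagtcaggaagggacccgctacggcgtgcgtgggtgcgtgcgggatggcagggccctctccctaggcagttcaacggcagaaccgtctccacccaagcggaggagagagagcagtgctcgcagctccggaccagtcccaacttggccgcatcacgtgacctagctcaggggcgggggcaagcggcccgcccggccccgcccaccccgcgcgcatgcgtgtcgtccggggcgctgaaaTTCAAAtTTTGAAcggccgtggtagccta
Cdk1 chr10:69352863-69353162 (minus strand): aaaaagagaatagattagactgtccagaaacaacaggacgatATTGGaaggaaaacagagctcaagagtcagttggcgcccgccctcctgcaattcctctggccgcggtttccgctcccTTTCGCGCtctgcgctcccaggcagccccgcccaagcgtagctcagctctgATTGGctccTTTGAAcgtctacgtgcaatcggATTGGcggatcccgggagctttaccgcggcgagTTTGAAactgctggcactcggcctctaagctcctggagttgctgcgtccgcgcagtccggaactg
Top2a chr11:99024140-99024439 (minus strand): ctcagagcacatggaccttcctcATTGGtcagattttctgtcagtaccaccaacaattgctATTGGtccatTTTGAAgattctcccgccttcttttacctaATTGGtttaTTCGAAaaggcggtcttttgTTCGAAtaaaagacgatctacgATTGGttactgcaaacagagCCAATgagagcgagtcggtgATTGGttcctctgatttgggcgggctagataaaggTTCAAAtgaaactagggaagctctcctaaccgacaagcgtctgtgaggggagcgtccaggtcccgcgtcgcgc
Cdc25b held 1 cell cycle homology region and 1 CCAAT, Anln held 2 cell cycle homology regions and no CCAAT, and Pttg1 held none of the motifs. Cdk1 held 2 cell cycle homology regions, 3 CCAAT and 1 E2F site, and Top2a held 4 cell cycle homology regions and 6 CCAAT. The windows of Birc5, Plk4, Nuf2, Mad2l1 and Nusap1 likewise held none of the motifs.

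The mitotic program was expressed at much the same order of magnitude in both cultures, with 11 of the 40 transcripts lower in MA9+SETDB1, 3 higher and 26 that did not pass the test. The 40 genes together took 0.616%, 0.535% and 0.523% of the scaled library in MA9+SETDB1 replicates 1, 2 and 3, against 0.707%, 0.573% and 0.594% in MA9+EV replicates 1, 2 and 3. The groups overlapped in this sum, with replicate 1 the highest library in each. In bulk RNA, fewer dividing cells and less RNA per dividing cell cannot be told apart. These calls were made with edgeR's quasi-likelihood test at an adjusted p under 0.05. The lower genes make up 27.5% of the list, against 26.2% of all 12986 tested genes. How the share that fell stands to that of all genes depended on the fit, and it lay on either side. The share was 42.5% against 29.0% of all genes with the replicate number as a block. It was 40% against 29.4% with upper-quartile scaling, and 62.5% against 35.3% with library totals as the only scaling. With a library left out it was 37.5% against 29.7% without MA9+SETDB1 replicate 1, but 17.5% against 20.1% without MA9+SETDB1 replicate 2. With replicates 2 and 3 of each group summed it was 10.0% against 13.8%. Only 3 of the 40 rose, against 27.4% of all tested genes. In either direction 35.0% of the list passed, against 53.5% of all tested genes.

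Fitted log2 fold changes were negative for 31 of the 40 genes, against 50.5% of all tested genes. Their median was -0.31 in the list and -0.01 over all tested genes. All 3 MA9+SETDB1 libraries lay below all 3 MA9+EV libraries for 19 of the 40 genes (47.5%), against 32.5% of tested genes. They lay above for 3 of the 40 genes, against 32.1% of tested genes. The median absolute log2 fold change was 0.35 in the list and 0.62 over all tested genes, or 0.49 over the 9041 of them with a mean of 10 CPM or more, a level that each of the 40 genes reached. Changes of more than 2-fold were seen for 5 of the 40 genes, against 35.3% of all tested genes.

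All 40 passed the filter on low counts, and no library had fewer than 248 reads on any of them. Gene counts summed to between 18070482 and 22561757 per library, and values are given as CPM, counts per 1000000 of the scaled library size. Setdb1, the overexpressed gene, stood at 475, 605 and 607 CPM in replicates 1, 2 and 3 of the MA9+SETDB1 group, against 105, 108 and 109 CPM in MA9+EV. The cultures also differed in blood lineage transcripts. The 9 mast cell and basophil markers summed to 11090 to 11620 CPM in the MA9+SETDB1 libraries, against 49.6 to 85.0 CPM in MA9+EV, and all 9 were higher; Tpsb2 had no count in MA9+EV. The 9 erythroid markers summed to 1488 to 1889 CPM in MA9+SETDB1 and to 0.785 to 1.51 CPM in MA9+EV, all 9 higher, with Alas2 at no count in MA9+EV. The 8 neutrophil granule markers summed to 45.0 to 128.1 CPM in MA9+SETDB1 and to 13720 to 16150 CPM in MA9+EV, all 8 lower. Of 8 monocyte and macrophage markers, 3 were higher and 5 lower, with sums of 792 to 1807 CPM in MA9+SETDB1 and 2465 to 4224 CPM in MA9+EV. The 4 tested megakaryocyte markers, 2 higher and 1 lower, took sums of 521 to 661 CPM in MA9+SETDB1 and 1.45 to 2.17 CPM in MA9+EV. The 2 tested lymphoid markers were both higher. Of the stromal and endothelial markers 2 were tested: Pdgfrb was higher, at 54.1 CPM in MA9+SETDB1 and 0.0612 CPM in MA9+EV on average, and Pecam1 lower, at 129 CPM in MA9+SETDB1 and 319.8 CPM in MA9+EV, while Cdh5 had no count in either group. Of 6 myeloid leukocyte markers, which summed to 2052 to 2073 CPM in MA9+SETDB1 and 1998 to 2014 CPM in MA9+EV, Spn and Cd47 were higher and Ptprc, Cd33 and Kit lower. Kit, the receptor of SCF, averaged 1.07 CPM in MA9+SETDB1 and 114 CPM in MA9+EV. Spi1 did not pass, at 210 CPM in MA9+SETDB1 and 195 CPM in MA9+EV. The part of these lineage differences in the mitosis values was not tested.

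**Figure D2:**
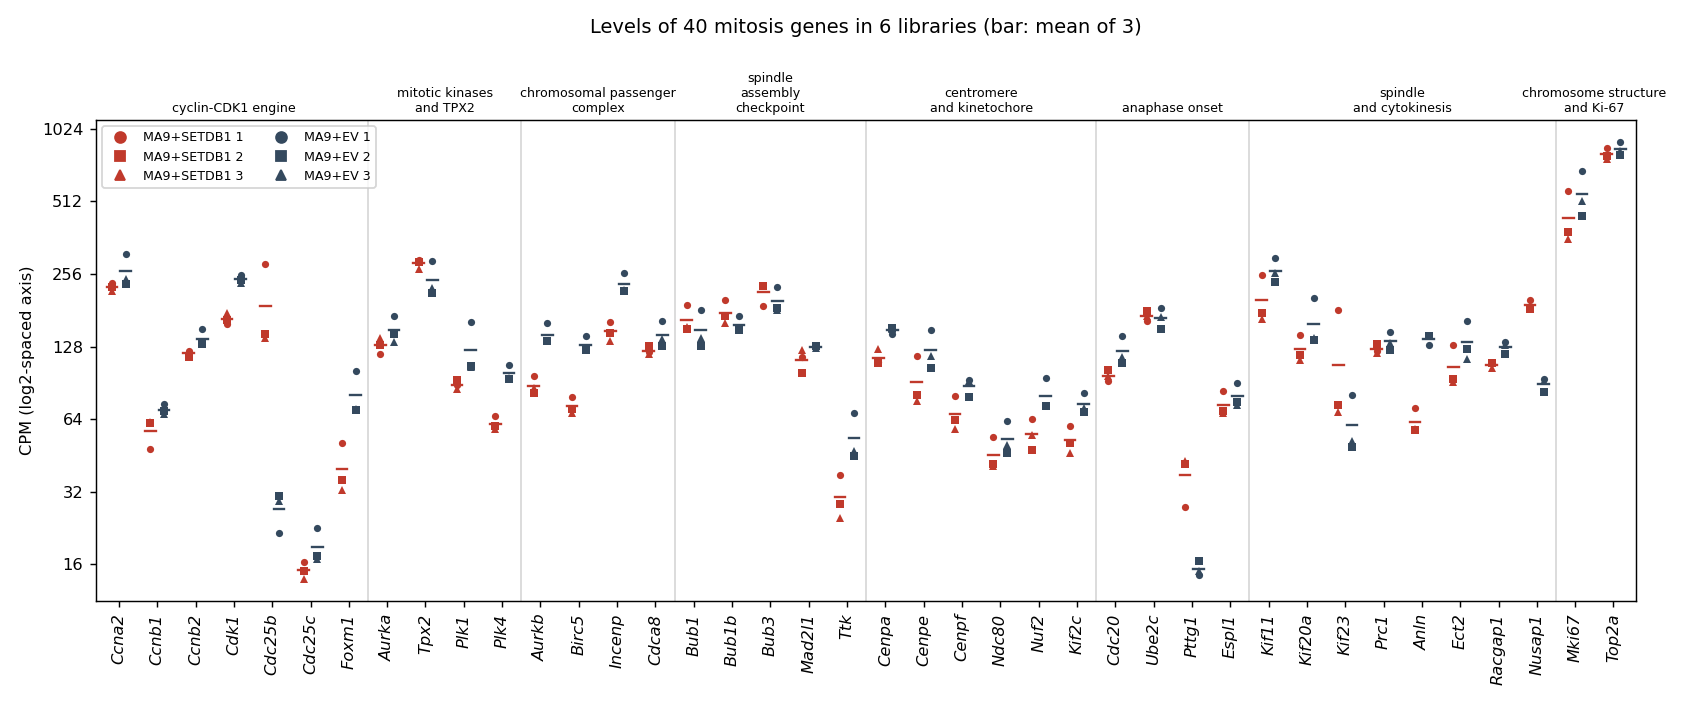
Level of each of the 40 genes in CPM (y axis, log2-spaced) by role, with MA9+SETDB1 libraries left of MA9+EV libraries; points are libraries and bars are means of 3. Cdc25b, Pttg1 and Nusap1 lie wholly higher in MA9+SETDB1, and Birc5, Anln and Foxm1 wholly lower.

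In the cyclin and CDK1 engine the kinase gene fell while its cyclins did not pass the test. Cdk1, the kinase that drives mitotic entry (ENSMUSG00000019942.13, GRCm38 chromosome 10, 69335146 to 69352912), stood at 159, 166 and 176 CPM in replicates 1, 2 and 3 of the MA9+SETDB1 group, against 253, 242 and 235 CPM in MA9+EV. All 3 MA9+SETDB1 libraries were below all MA9+EV libraries, and the log2 fold change was -0.54 (standard error 0.09, adjusted p = 0.00286 by edgeR). Ccnb1, which encodes cyclin B1, stood at 48.2, 61.5 and 62.2 CPM in MA9+SETDB1 and 74.2, 69.2 and 67.2 CPM in MA9+EV, with a log2 fold change of -0.29 (standard error 0.13, adjusted p = 0.0934 by edgeR). Its libraries also did not overlap, and the lowest was MA9+SETDB1 replicate 1. The genes of cyclin B2 and cyclin A2, Ccnb2 and Ccna2, had log2 fold changes of -0.20 and -0.22 (edgeR adjusted p = 0.133 and 0.207). Ccnb1 and Ccnb2 each have 1 named pseudogene.

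The CDC25 phosphatases, which remove the inhibitory phosphates from CDK1, differed in outcome: Cdc25b rose and Cdc25c did not pass the test. Cdc25b (ENSMUSG00000027330.16, GRCm38 chromosome 2, 131186436 to 131198511) stood at 283, 144 and 138 CPM in replicates 1, 2 and 3 of the MA9+SETDB1 group, against 21.6, 30.8 and 29.3 CPM in MA9+EV. Every MA9+SETDB1 library was several times above every MA9+EV library, with replicate 1 the highest of its group. The log2 fold change was 2.79 (standard error 0.32, adjusted p = 0.000493 by edgeR), a 6.93-fold rise and the largest of the 40 changes. Without MA9+SETDB1 replicate 1 it was 2.39 (edgeR adjusted p = 9.58e-05). Cdc25c, a paralog of Cdc25b, averaged 15.1 ± 1.24 CPM in MA9+SETDB1 and 18.99 ± 3.23 CPM in MA9+EV (SD, n = 3 each), with a log2 fold change of -0.33 (standard error 0.17, adjusted p = 0.154 by edgeR). The third paralog, Cdc25a, which acts from the start of S phase and is not on the list of 40, fell to 82.3 ± 5.81 CPM in the MA9+SETDB1 libraries, against 152 ± 24.1 CPM in MA9+EV (SD, n = 3 each; log2 fold change -0.89 with standard error 0.14, adjusted p = 0.00172 by edgeR). The opposing kinase gene Wee1, which phosphorylates and restrains CDK1, fell to 31.2 ± 8.43 CPM in the MA9+SETDB1 libraries, against 113 ± 2.93 CPM in MA9+EV (SD, n = 3 each; log2 fold change -1.86 with standard error 0.19, adjusted p = 0.000311 by edgeR).

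Foxm1, a forkhead transcription factor of late cell cycle genes (ENSMUSG00000001517.14, GRCm38 chromosome 6, 128362994 to 128375886), fell as well. It stood at 51.2, 35.7 and 32.6 CPM in the MA9+SETDB1 libraries, against 102, 69.6 and 70.4 CPM in MA9+EV. Replicate 1 was the highest library of each group, and the groups did not overlap. The log2 fold change was -1.02 (standard error 0.23, adjusted p = 0.00866 by edgeR). Foxm1 shares 377 bases with Tex52 in the annotation, and the counting's strand setting was not given in the sources used here.

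Of the mitotic kinases and the Aurora A activator TPX2, Plk4 alone passed. Plk4, the kinase that starts centriole duplication (ENSMUSG00000025758.10, GRCm38 chromosome 3, 40799951 to 40816883), stood at 65.8, 59.8 and 58.5 CPM in MA9+SETDB1 and 108, 94.4 and 95.0 CPM in MA9+EV. The groups were well apart, with a log2 fold change of -0.69 (standard error 0.10, adjusted p = 0.00149 by edgeR). Plk1, the Polo-like kinase of spindle assembly and cytokinesis, stood at 88.8, 93.3 and 85.2 CPM in MA9+SETDB1 and 162, 106 and 105 CPM in MA9+EV. Its groups did not overlap, but MA9+EV replicate 1 was far above the other MA9+EV libraries, and the log2 fold change of -0.48 (SE 0.18) missed the threshold (edgeR adjusted p = 0.0623). Aurka, the spindle pole kinase gene, and Tpx2 had log2 fold changes of -0.21 and 0.22 (edgeR adjusted p = 0.201 and 0.225). With library totals as the only scaling, the value of Tpx2 was -0.003.

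The chromosomal passenger complex, which corrects faulty attachments at centromeres and then guides cytokinesis, had 3 of its 4 genes lower (75.0%, against 26.2% of all tested genes). Birc5, which encodes survivin (ENSMUSG00000017716.15, GRCm38 chromosome 11, 117849237 to 117855743), stood at 79.2, 70.4 and 68.0 CPM in the MA9+SETDB1 libraries, against 142, 124 and 124 CPM in MA9+EV. The log2 fold change was -0.84 (standard error 0.11, adjusted p = 0.000779 by edgeR), and the change within each numbered pair of libraries lay between -0.81 and -0.87. Aurkb, the kinase subunit gene (ENSMUSG00000020897.12, GRCm38 chromosome 11, 69045624 to 69051664), stood at 96.5, 82.1 and 86.0 CPM in MA9+SETDB1 and 160, 135 and 135 CPM in MA9+EV. Its log2 fold change was -0.70 (standard error 0.12, adjusted p = 0.00246 by edgeR). Incenp, the scaffold gene (ENSMUSG00000024660.8, GRCm38 chromosome 19, 9872295 to 9899489), stood at 162, 146 and 135 CPM in MA9+SETDB1 and 259, 217 and 220.3 CPM in MA9+EV, a log2 fold change of -0.65 (standard error 0.12, adjusted p = 0.00383 by edgeR). The groups did not overlap for any of these 3 genes. Aurkb has 1 named pseudogene, so its counts could be split with that copy. Incenp shares 693 bases with the pseudogene Gm19054 by position in the annotation, and the effect on its counts was not tested. Cdca8, which encodes borealin, averaged 123 ± 4.46 CPM in MA9+SETDB1 and 144 ± 18.2 CPM in MA9+EV (SD, n = 3 each), with a log2 fold change of -0.22 (standard error 0.12, adjusted p = 0.151 by edgeR). The 4 genes had a median log2 fold change of -0.68.

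The spindle assembly checkpoint genes did not pass, apart from Ttk. Ttk, the kinase also known as MPS1 that starts checkpoint signalling (ENSMUSG00000038379.15, GRCm38 chromosome 9, 83834651 to 83872390), stood at 37.8, 28.6 and 24.9 CPM in the MA9+SETDB1 libraries, against 67.6, 44.9 and 47.3 CPM in MA9+EV. Replicate 1 was again the highest of each group without overlap between them, and the log2 fold change was -0.81 (standard error 0.22, adjusted p = 0.0191 by edgeR). Without MA9+SETDB1 replicate 2 or 3 the value was -0.76 or -0.68 and the call was lost (edgeR adjusted p = 0.0665 and 0.0668). Bub1, Bub1b and Bub3, which encode the checkpoint kinase, BubR1 and their WD40 partner, had log2 fold changes of 0.15, 0.17 and 0.12 with overlapping groups, and these values turned negative with library totals as the only scaling. Mad2l1, the gene of the checkpoint protein MAD2 that binds CDC20, averaged 113 ± 12.7 CPM in MA9+SETDB1 and 127.9 ± 1.61 CPM in MA9+EV (SD, n = 3 each), with a log2 fold change of -0.18 (standard error 0.11, adjusted p = 0.209 by edgeR).

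**Figure D3:**
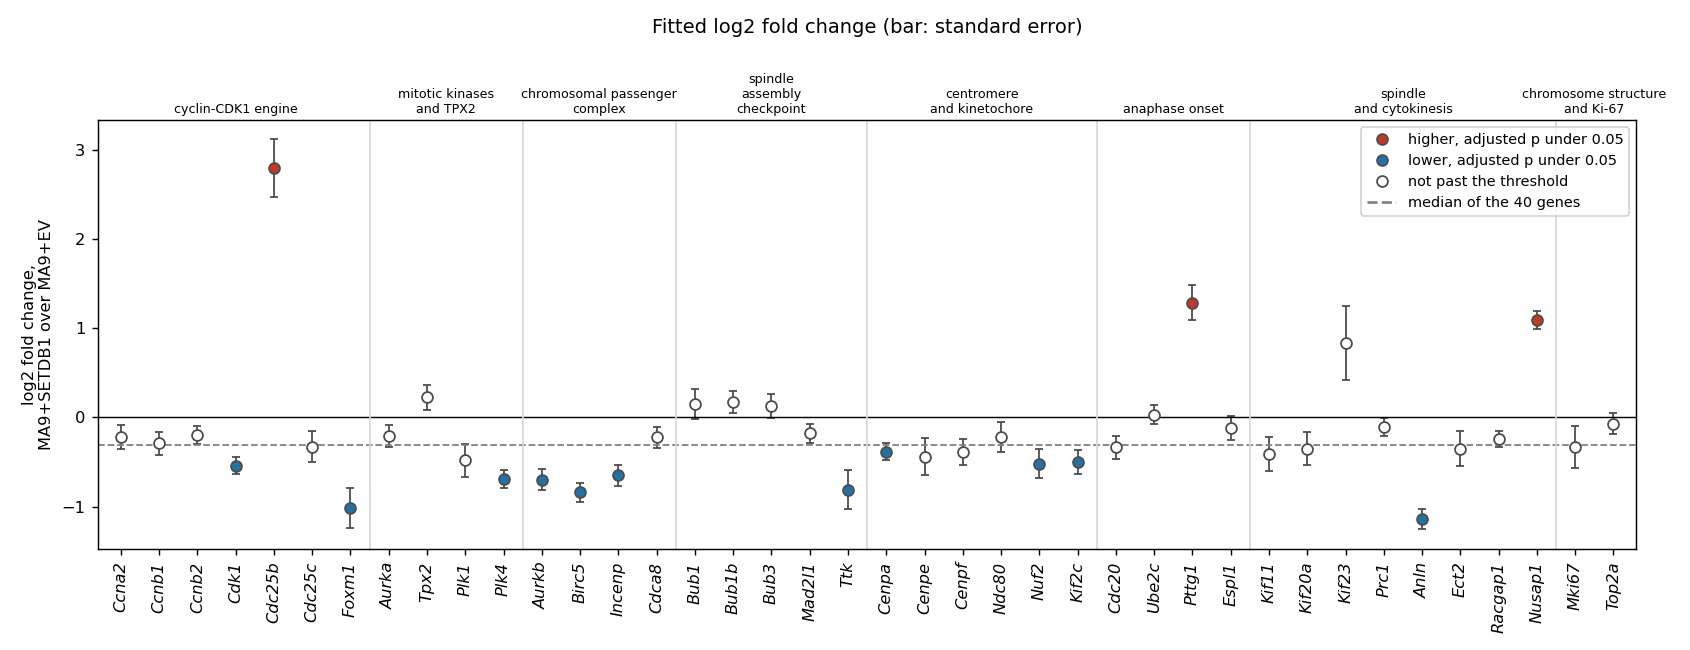
Fitted log2 fold change of MA9+SETDB1 over MA9+EV (y axis) with its standard error for each of the 40 genes by role; filled points passed an adjusted p of 0.05. The dashed line is the list's median of -0.31, and 31 points lie below 0.

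At the centromere and kinetochore all 6 genes had negative values, against 50.5% of all tested genes. Of these 6 genes 3 passed as lower, against 26.2% of all tested genes. Cenpa, which encodes the centromeric histone H3 variant (ENSMUSG00000029177.9, GRCm38 chromosome 5, 30666877 to 30674837), stood at 110, 110 and 125 CPM in the MA9+SETDB1 libraries, against 145, 154 and 152 CPM in MA9+EV. The log2 fold change was -0.39 (standard error 0.10, adjusted p = 0.0142 by edgeR). Replicate 1 was not the highest library of either group here, and the groups did not overlap. Nuf2, a subunit of the NDC80 complex that binds microtubules (ENSMUSG00000026683.14, GRCm38 chromosome 1, 169497934 to 169531464), stood at 64.2, 47.6 and 55.2 CPM in MA9+SETDB1 and 94.8, 72.4 and 72.5 CPM in MA9+EV, with a log2 fold change of -0.52 (standard error 0.16, adjusted p = 0.0311 by edgeR). Kif2c, the microtubule-depolymerizing kinesin also known as MCAK (ENSMUSG00000028678.13, GRCm38 chromosome 4, 117159633 to 117182624), stood at 60.1, 51.1 and 46.5 CPM in MA9+SETDB1 and 82.6, 68.7 and 71.3 CPM in MA9+EV, with a log2 fold change of -0.50 (standard error 0.13, adjusted p = 0.0181 by edgeR). Both were lower in every MA9+SETDB1 library. These 3 calls depended on single libraries. Cenpa lost its call without MA9+SETDB1 replicate 2 and without MA9+EV replicate 2 or 3 (edgeR adjusted p = 0.0733, 0.0548 and 0.0535). Kif2c lost it without MA9+SETDB1 replicate 2 or 3 (edgeR adjusted p = 0.0685 and 0.0692). Nuf2 lost it without MA9+SETDB1 replicate 2 or 3 and without MA9+EV replicate 1 (edgeR adjusted p = 0.108, 0.0897 and 0.0716). The motor gene Cenpe, the kinetochore corona gene Cenpf and Ndc80, the partner of Nuf2, had log2 fold changes of -0.44, -0.39 and -0.22 (edgeR adjusted p = 0.121, 0.0579 and 0.298).

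Among the genes of anaphase onset, 1 of 4 passed and it rose (25.0%, against 27.4% of all tested genes). Pttg1, which encodes securin, the inhibitor of separase (ENSMUSG00000020415.16, GRCm38 chromosome 11, 43420244 to 43427463), stood at 27.7, 41.8 and 42.9 CPM in the MA9+SETDB1 libraries, against 14.5, 16.6 and 15.0 CPM in MA9+EV. MA9+SETDB1 replicate 1 was the lowest of its group and still above every MA9+EV library. The log2 fold change was 1.28 (standard error 0.20, adjusted p = 0.00161 by edgeR). Espl1, the gene of separase itself, averaged 73.6 ± 9.07 CPM in MA9+SETDB1 and 79.8 ± 9.42 CPM in MA9+EV (SD, n = 3 each), with a log2 fold change of -0.12 (standard error 0.13, adjusted p = 0.493 by edgeR). Cdc20, the APC/C activator gene, had a log2 fold change of -0.34 (standard error 0.13, adjusted p = 0.0569 by edgeR). Ube2c, which encodes the APC/C's ubiquitin-conjugating enzyme, stood at 0.03 (standard error 0.11, adjusted p = 0.842 by edgeR), the smallest change of the list.

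Genes of the spindle and of cytokinesis gave the largest fall and a clear rise. Anln, which encodes anillin, the scaffold of the contractile ring (ENSMUSG00000036777.8, GRCm38 chromosome 9, 22331214 to 22389211), stood at 70.9, 58.0 and 58.4 CPM in the MA9+SETDB1 libraries, against 130, 142 and 142 CPM in MA9+EV. Every MA9+SETDB1 library was far below every MA9+EV library, and the log2 fold change of -1.14 (standard error 0.12, adjusted p = 0.000279 by edgeR) was the lowest of the 40. In the annotation Anln shares 653 bases with 9530077C05Rik. Nusap1, a spindle protein gene that binds and bundles microtubules (ENSMUSG00000027306.15, GRCm38 chromosome 2, 119618298 to 119650165), stood at 201, 184 and 188 CPM in MA9+SETDB1 and 93.9, 83.0 and 92.4 CPM in MA9+EV. The 3 libraries of each group were close together, and the log2 fold change was 1.09 (standard error 0.10, adjusted p = 0.000172 by edgeR). Nusap1 shares 208 bases with its neighbour Oip5, a centromere gene that also rose (log2 fold change 0.80, edgeR adjusted p = 0.00751).

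Kif23, the kinesin of the central spindle, was uneven, at 182, 73.1 and 68.6 CPM in MA9+SETDB1 replicates 1, 2 and 3 and 80.6, 49.3 and 52.0 CPM in MA9+EV. Replicate 1 stood far above the others in MA9+SETDB1 and above them in MA9+EV, and the groups overlapped. The log2 fold change was 0.83 (standard error 0.41, adjusted p = 0.132 by edgeR), or 0.23 without MA9+SETDB1 replicate 1 (edgeR adjusted p = 0.42). Racgap1, whose product joins KIF23 in the centralspindlin complex, had a log2 fold change of -0.24 (standard error 0.09, adjusted p = 0.0601 by edgeR). The remaining genes of this role had values between -0.11 and -0.41. They were the bipolar spindle motor Kif11, the cytokinesis motor Kif20a, the bundling protein Prc1 and the RhoA exchange factor Ect2 (edgeR adjusted p = 0.106, 0.156, 0.408 and 0.168). Prc1 shares 21669 bases with Rccd1 in the annotation, so its reads are uncertain if strand was not used. Kif11 shares 1157 bases with the pseudogene Gm8663 and 462 bases with the pseudogene Gm46649.

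Neither proliferation marker passed. Mki67, which encodes the chromosome surface protein Ki-67 (ENSMUSG00000031004.8, GRCm38 chromosome 7, 135689784 to 135716450), stood at 568, 381 and 356 CPM in the MA9+SETDB1 libraries, against 687, 447 and 512.3 CPM in MA9+EV. MA9+SETDB1 replicate 1 lay above MA9+EV replicates 2 and 3, and the log2 fold change was -0.34 (standard error 0.24, adjusted p = 0.273 by edgeR). Top2a, the gene of the topoisomerase that untangles sister chromatids (ENSMUSG00000020914.17, GRCm38 chromosome 11, 98992947 to 99024199), stood at 852, 790 and 768 CPM in MA9+SETDB1 and 905, 798 and 831 CPM in MA9+EV. Its groups overlapped and its log2 fold change was -0.07 (standard error 0.12, adjusted p = 0.631 by edgeR).

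The libraries of each group did not vary alike. MA9+SETDB1 replicate 1 was above replicates 2 and 3 for 30 and 31 of the 40 genes, by medians of 0.16 and 0.19 on the log2 scale. MA9+EV replicate 1 was above replicates 2 and 3 for 35 and 36 genes, by medians of 0.26 and 0.24. Replicates 2 and 3 were closer, with a median absolute log2 difference of 0.08 in MA9+SETDB1 and 0.06 in MA9+EV. Relative to the mean of the MA9+EV libraries, the median gene stood at -0.15, -0.32 and -0.31 in MA9+SETDB1 replicates 1, 2 and 3, against 0.18, -0.11 and -0.07 in MA9+EV. The offset of replicate 1 within a group was thus of the same order as the difference between the groups for the median gene. Between libraries of the same number the median log2 difference was -0.34, -0.18 and -0.28 for numbers 1, 2 and 3. In all 3 pairs 29 of the 40 genes were lower. The share of all tested genes lower in all 3 pairs was not computed.

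**Figure D4:**
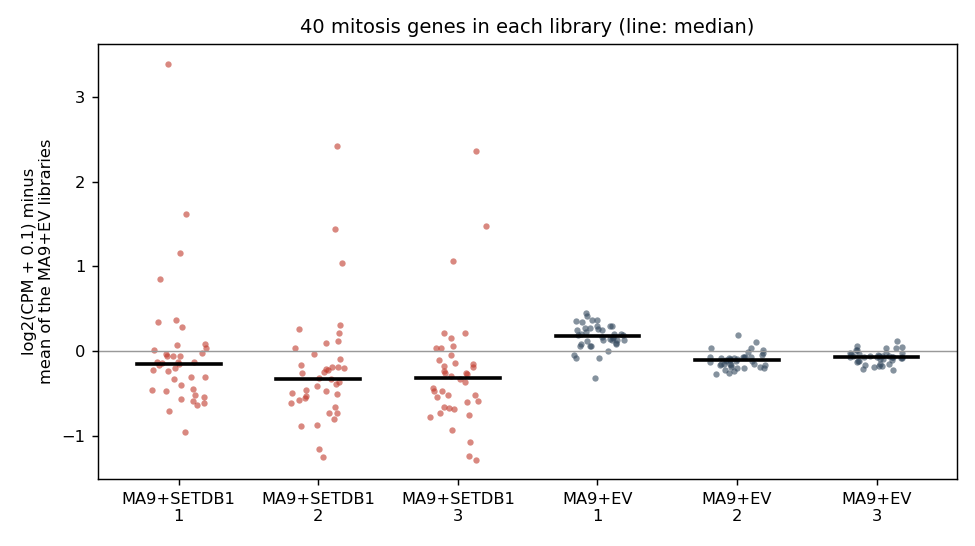
Each point is a mitosis gene in a library, as log2(CPM + 0.1) minus the mean of the 3 MA9+EV libraries (y axis); black lines are medians. The medians are -0.15, -0.32 and -0.31 in MA9+SETDB1 replicates 1, 2 and 3, against 0.18, -0.11 and -0.07 in MA9+EV.

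With the replicate number as a block, 17 of the 40 genes fell (42.5%, against 29.0% of all tested genes in that fit) and 4 rose (10.0%, against 29.2%). The 6 additional lower genes were Mki67, Cenpe, Cenpf, Kif11, Kif20a and Ect2 (edgeR adjusted p = 0.0459, 0.0108, 0.0342, 0.022, 0.0307 and 0.0131 with the block). Kif23 was the additional higher gene (log2 fold change 0.72, edgeR adjusted p = 0.0192 with the block). Without MA9+SETDB1 replicate 2 the count of lower genes was 7 (17.5%, against 20.1% of all tested genes in that fit). With replicates 2 and 3 of each group summed into a single library the count was 4 (10.0%, against 13.8%). These were Anln, Aurkb, Birc5 and Plk4, while Cdk1, Foxm1 and Incenp stood at adjusted p = 0.0641, 0.0527 and 0.057 by edgeR. Anln, Aurkb, Birc5, Plk4 and the 3 genes that rose in the main fit passed in all 14 alternative settings. With library totals as the only scaling, the median of all tested genes moved to -0.24 and that of the list to -0.54, and 25 of the 40 genes were then lower. In that setting 35.3% of all tested genes were lower and 21.8% higher. The distance between the list's median and that of all genes was -0.30 with either scaling.

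Other genes of mitosis, from 7 lists with 126 genes that share none of the 40, had more falls than rises. All 126 were tested, and 54 fell and 10 rose, with a median log2 fold change of -0.29. That is 42.9% lower against 26.2% of all tested genes, and 7.9% higher against 27.4%. With replicates 2 and 3 of each group summed, 18 of the 126 fell, a share close to the 13.8% of all tested genes in that fit. Of 30 other centromere and kinetochore genes, 17 fell (56.7%, against 26.2% of all tested genes) and 3 rose (10.0%, against 27.4%). Hjurp, the chaperone gene that deposits CENP-A, fell to 221 ± 40.6 CPM in the MA9+SETDB1 libraries, against 491 ± 43.2 CPM in MA9+EV (SD, n = 3 each; log2 fold change -1.15 with standard error 0.16, adjusted p = 0.00106 by edgeR). Pmf1 and Nsl1, subunits of the MIS12 complex, and the inner kinetochore gene Cenpw had log2 fold changes of -0.91, -0.997 and -0.96 (edgeR adjusted p = 0.000269, 0.00232 and 0.00124). The 3 that rose were Knl1, Zwint and Oip5, with log2 fold changes of 0.75, 0.55 and 0.80.

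Of 19 cohesin and condensin genes, 9 fell (47.4%, against 26.2% of all tested genes) and 1 rose (5.3%, against 27.4%). Smc4, a core condensin subunit gene, fell to 325 ± 32.8 CPM in the MA9+SETDB1 libraries, against 587 ± 62.5 CPM in MA9+EV (SD, n = 3 each; log2 fold change -0.85 with standard error 0.13, adjusted p = 0.00188 by edgeR). The condensin II subunit gene Ncapg2, the cohesin regulator Pds5b and the sororin gene Cdca5 had log2 fold changes of -0.97, -1.01 and -0.64 (edgeR adjusted p = 0.0015, 0.00114 and 0.00304). The condensin I subunit gene Ncaph was the one that rose, to 114 ± 8.51 CPM in the MA9+SETDB1 libraries, against 66.8 ± 11.9 CPM in MA9+EV (SD, n = 3 each). Against 26.2% lower and 27.4% higher among all tested genes, 9 of 18 other G2/M regulators fell and none rose. Beside Wee1 and Cdc25a, these included the mitotic kinase gene Pbk and the PLK1 activator gene Bora, at log2 fold changes of -0.59 and -0.59 (edgeR adjusted p = 0.00216 and 0.00544).

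Of 10 centriole genes, 5 fell and none rose, against 26.2% lower and 27.4% higher among all tested genes. Sass6, the gene of the centriole cartwheel protein that acts with PLK4, fell to 16.1 ± 5.15 CPM in the MA9+SETDB1 libraries, against 45.6 ± 8.27 CPM in MA9+EV (SD, n = 3 each; log2 fold change -1.50 with standard error 0.26, adjusted p = 0.00266 by edgeR). Of 21 other spindle genes, 5 fell (23.8%, below the 26.2% of all tested genes) and 1 rose (4.8%, against 27.4%). The microtubule-depolymerizing kinesin gene Kif2a, a paralog of Kif2c, rose to 150 ± 10.1 CPM in the MA9+SETDB1 libraries, against 73.9 ± 0.549 CPM in MA9+EV (SD, n = 3 each; log2 fold change 1.02 with standard error 0.09, adjusted p = 0.000182 by edgeR). The spindle genes Ska3, Spag5 and Haus1 had log2 fold changes of -0.96, -0.82 and -0.69.

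Of 16 genes for the APC/C and its regulators FZR1 and EMI1, 4 fell (25.0%, against 26.2% of all tested genes) and 2 rose (12.5%, against 27.4%). The subunit genes Cdc16, Cdc23 and Cdc26 had log2 fold changes of -0.73, -0.68 and -0.60, and Fzr1, the activator that works after anaphase, had 0.46 (edgeR adjusted p = 0.00809, 0.00122, 0.0109 and 0.00617). Cdc23 overlaps Kif20a by 4930 bases in the annotation, so reads of these genes are uncertain if strand was not used. The MuvB, DREAM and MYBL2 list, whose products regulate the transcription of the late cell cycle genes, had 5 of 12 genes lower (41.7%, against 26.2% of all tested genes) and 3 higher (25.0%, against 27.4%). Mybl2, the B-MYB gene, stood at 71.6 CPM in MA9+SETDB1 and 114 CPM in MA9+EV on average (log2 fold change -0.67, edgeR adjusted p = 0.00729), and it was named outside the rule after its values were seen. Lin9, a core MuvB subunit gene, had a log2 fold change of -0.85, and Lin37, a subunit gene known from its part in repression by DREAM, had 1.179 (edgeR adjusted p = 0.00277 and 0.000978). Tfdp2, which encodes a dimerization partner of E2F proteins, fell to 6.05 ± 1.65 CPM in the MA9+SETDB1 libraries, against 45.2 ± 14.1 CPM in MA9+EV (SD, n = 3 each; log2 fold change -2.90 with standard error 0.32, adjusted p = 0.000395 by edgeR). E2f4, a repressive E2F gene of that complex, rose with a log2 fold change of 0.75 (edgeR adjusted p = 0.00285).

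**Figure D5:**
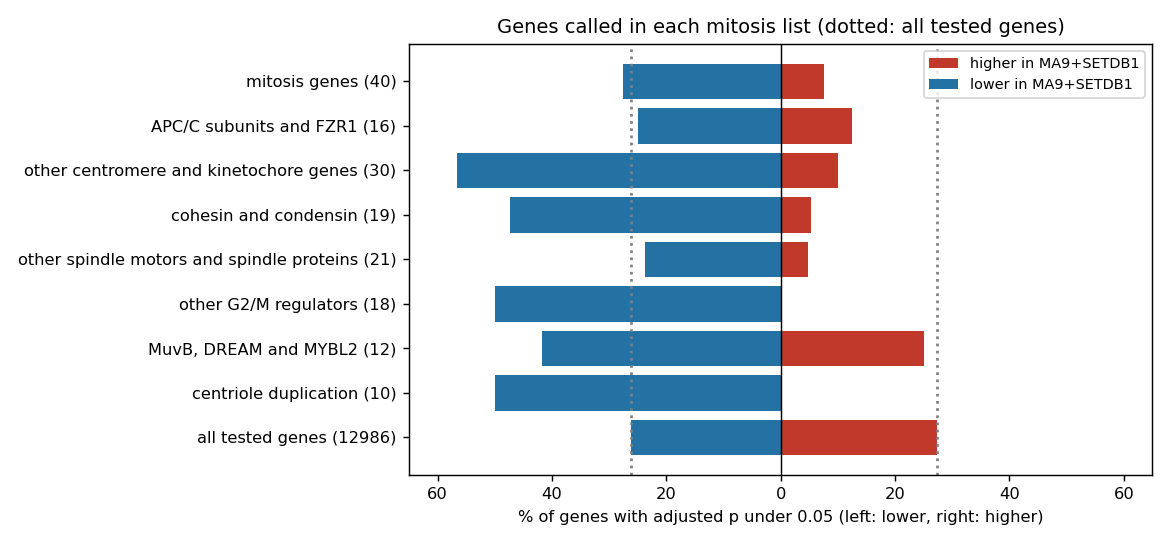
Percent of genes in each list that were lower (left) or higher (right) in MA9+SETDB1 at an adjusted p under 0.05, with the number of tested genes in parentheses; dotted lines mark all tested genes at 26.2% lower and 27.4% higher. Every list stays short of the dotted line for higher genes, and 5 of the 7 other lists lie beyond the line for lower genes.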

How the data were processed

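Each of the 6 RNA-seq libraries had a deposited file of whole-number read counts per Ensembl gene, without normalization. Per the submitters' processing notes the build was GRCm38, and the tools named, without role, include STAR 2.6.0c and HTSeq 0.11.0. Strand setting: not given in the sources used here. The other 20 samples were not analysed here. The 5 summary lines of each file (24.6% to 26.3% of entries) were left out. Symbols matched 52480 identifiers by version and 1599 without it, and 67 stayed unmatched.

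Counts were filtered with filterByExpr by group, scaled by TMM and tested with edgeR's quasi-likelihood test (edgeR 4.0.16, R 4.3.3), with Benjamini-Hochberg adjustment over all 12986 tested genes and a threshold of 0.05. Standard errors were derived from the F statistic. The code was tested on simulated data. Members and lists were chosen with earlier results of these data known. Genes named with full values were all members past the threshold and Mki67, Top2a, Cdk1, Ccnb1 and Plk1, and of each other list up to 4 called genes with the smallest p; other genes of those lists are named where a count is 5 or fewer, chosen after their values were seen. Gene coordinates and promoter windows came from RefSeq on GRCm38.p6. Exon lengths were not used, so levels are not compared between genes. Some marker genes are not reported here.

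Both groups use the replicate numbers 1 to 3. Across genes, deviations from the group mean correlated between same-numbered libraries at 0.257, 0.196 and 0.169, all above 0.1, so a fit with the replicate number as a block was made as well. Replicate 2 of MA9+EV correlated as well with replicate 3 of MA9+SETDB1 (0.203), so this measure does not tell numbers 2 and 3 apart. Replicates 2 and 3 differed by more than counting noise (chi-square over degrees of freedom 3.14 in MA9+SETDB1 and 4.29 in MA9+EV) but far less than from replicate 1 (78.3 to 102), and were kept as separate libraries.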

Additional observations from a re-analysis of the deposited data

How the results depend on the processing

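Alternatives were DESeq2's size factors, upper-quartile scaling, library totals alone, DESeq2's test, 2 other low-count filters, the replicate block, each library left out and replicates 2 and 3 summed. Genes lower among the 40 numbered 11, but 25 with library totals alone, 17 with the replicate block, 4 with replicates 2 and 3 summed, and 7 to 15 with a library left out. Of all tested genes 26.2% were lower in the main fit, 35.3% with library totals alone and 29.0% with the replicate block. The share was 13.8% with replicates 2 and 3 summed, and 20.1% to 29.7% with a library left out. The median log2 fold change was -0.31, but -0.54 with library totals, and -0.35 to -0.18 with a library left out, the smallest without MA9+EV replicate 1. Over all genes 2292 rose and 1928 fell with replicates 2 and 3 summed. Of the 126 other mitosis genes, 5 rose with library totals, and 2 rose and 18 fell with replicates 2 and 3 summed. Of all tested genes 21.8% rose with library totals, and 16.4% rose and 13.8% fell with replicates 2 and 3 summed. The replicate block changed no other count by over 1.5 times. Why the counts move was not tested, except that the summed fit has fewer libraries. Of 560 values (40 genes in 14 settings), 503 kept direction and side of the threshold, 17 lost the call, 31 gained it and 9 turned. The turned ones were not called: with library totals Bub1 stood at -0.07, Bub1b at -0.052, Bub3 at -0.11 and Tpx2 at -0.003. Ube2c stood at -0.038 with upper-quartile scaling, -0.20 with library totals, -0.026 with replicates 2 and 3 summed, and -0.052 to 0.096 with a library left out. With 3 libraries a group, the smallest change among the 40 that passed was -0.39 (Cenpa), and the largest that did not was 0.83 (Kif23).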
